A study of Mus musculus with 16 samples.

Results

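The cells described here are mesodermal cells induced from *ScxGFP* mouse iPSCs and sorted at T0, just before TGF-β2 was added. They were divided by whether a cell held any transcript of *Aldh1a2*, the gene of the enzyme that makes retinoic acid (RA) from retinaldehyde in the embryo. *ScxGFP* iPSCs are induced pluripotent stem cells from embryonic fibroblasts of mice that carry a GFP transgene driven by *Scx* regulatory sequence, and every group of the time course carries this transgene. All groups of the time course had spent 4 days of mesodermal induction in DF medium with 5% FBS, the Wnt agonist CHIR99021, and the hedgehog inhibitor cyclopamine. Medium without both compounds followed, at the end with 1% FBS, and the T0 cells had received 0 ng/ml of TGF-β2. The T3, T6, and T9 cells, used here only beside them, had then been kept in DF medium with 1% FBS and recombinant TGF-β2 (10 ng/ml) until day 3, 6, or 9. All came from a single reporter iPSC background, which limits them as a model. Living single cells, positive for Hoechst and negative for a dead-cell stain, were sorted into plates of 384 wells, 3 plates per time point, and each mRNA molecule was tagged with a unique molecular identifier (UMI) by CEL-Seq2, a method that counts the 3′ ends of transcripts. Nothing in the labels says that the 3 plates of a time point came from separate cultures. The p-values rest on how the difference between cells with and without *Aldh1a2* transcripts varied from plate to plate. This variation may be technical.

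The members were chosen by measured values. A T0 well entered with at least 200 detected genes, at least 3000 UMIs, and 0 or 1 UMI of *Tdgf1*, a gene of undifferentiated stem cells. It counted as Aldh1a2+ with 1 or more *Aldh1a2* UMIs and as Aldh1a2- with none. This gave 994 cells (476 Aldh1a2+ and 518 Aldh1a2-) of the 4594 cells with at least 200 genes in the whole time course. Of the 1147 such cells at T0, 76 had fewer than 3000 UMIs and 77 held more *Tdgf1* UMIs. The values of *Aldh1a2* and *Tdgf1* are therefore given as a description, with no test, and neither the class nor the count of Aldh1a2+ cells is a finding.

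Retinoic acid is made from retinol in 2 oxidation steps. Retinol is taken up through STRA6 and oxidised to retinaldehyde by RDH10, a step that DHRS3 runs backwards, and retinaldehyde is oxidised to RA by ALDH1A2 and its relatives. CRABP proteins carry RA inside the cell, CYP26 enzymes break it down, and the receptors RARA, RARB, and RARG, paired with RXR proteins, switch target genes on when RA is bound. In the embryo *Aldh1a2* marks somites, lateral plate, and the mesothelium. RA is reported to act against cartilage differentiation, and reports of its effect on tendon differentiation disagree. In mouse GRCm38 *Aldh1a2* (ENSMUSG00000013584) lies on the plus strand of chromosome 9 from 71215789 to 71296243, and its exons overlap those of no other annotated gene.

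The promoter windows of *Aldh1a2* and of *Rarb*, a textbook target of RA receptors, are shown because the paired half-sites to which RA receptors bind can be read in them. Each window runs from 250 bases before to 50 bases after the start of a RefSeq transcript (build GRCm38.p6), 5′ to 3′ on the gene's strand. The *Aldh1a2* window is chr9:71215539-71215838 (plus strand) and the *Rarb* window is chr14:16575427-16575726 (minus strand). Capitals mark pairs of half-sites in the same direction, AGGTCA or AGTTCA or GGGTCA or GGTTCA, with 5 or 2 bases between them, searched on both strands.
Aldh1a2: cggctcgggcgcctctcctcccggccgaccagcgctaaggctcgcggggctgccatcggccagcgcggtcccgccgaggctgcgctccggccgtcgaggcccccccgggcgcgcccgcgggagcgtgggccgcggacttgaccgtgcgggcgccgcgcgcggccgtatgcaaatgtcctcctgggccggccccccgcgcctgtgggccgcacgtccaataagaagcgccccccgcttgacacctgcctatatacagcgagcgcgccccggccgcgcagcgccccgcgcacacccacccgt
Rarb: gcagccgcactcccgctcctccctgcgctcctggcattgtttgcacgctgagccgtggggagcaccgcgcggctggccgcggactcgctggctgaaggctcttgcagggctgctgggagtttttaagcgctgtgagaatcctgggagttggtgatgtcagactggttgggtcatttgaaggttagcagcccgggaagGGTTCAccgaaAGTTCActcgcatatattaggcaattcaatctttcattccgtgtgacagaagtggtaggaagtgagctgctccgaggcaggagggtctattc
The *Rarb* pair has 5 bases between its half-sites and spans bases 198 to 214 of the window. The *Aldh1a2* window, 78% G and C, held no such pair. A pair with 5 bases between was found in 32 of 32851 promoter windows (0.0974%), in 2 of 10138 windows of the genes tested here (0.0197%), and in 1 of 132 windows of the genes higher in Aldh1a2+ cells (0.758%), which is that of *Rarb*. The window of *Cyp26a1*, too low to be tested, held such a pair on the opposite strand at bases 219 to 235. With 2 bases between, the pair was found in 0.268% of all windows and in none of the 33 windows of the RA genes tested. A match is a description of the sequence only.

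The share of T0 cells with *Aldh1a2* UMIs was unequal among the 3 plates. Plate 1 had 137 Aldh1a2+ cells of 319 (42.9%, exact Clopper-Pearson 95% interval 37.4% to 48.6%), plate 2 had 185 of 337 (54.9%, 49.4% to 60.3%), and plate 3 had 154 of 338 (45.6%, 40.2% to 51.0%). The intervals cover counting error only. Of the Aldh1a2+ cells, 178 held 1 UMI, 107 held 2 to 3, and 191 held 4 or more, up to 24. The level of *Aldh1a2* in the Aldh1a2+ cells was 288 CPM in plate 1, 364 CPM in plate 2, and 397 CPM in plate 3, where CPM stands for UMIs per 1000000 UMIs summed over those cells. By the same rule the mean share of Aldh1a2+ cells was 47.8% ± 6.28 for T0 plates (SD, n = 3 plates for each time point). It was 41.4% ± 6.93 for T3, where the range overlapped that of T0, then 25.1% ± 5.60 for T6 and 13.4% ± 3.47 for T9.

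**Figure D1:**
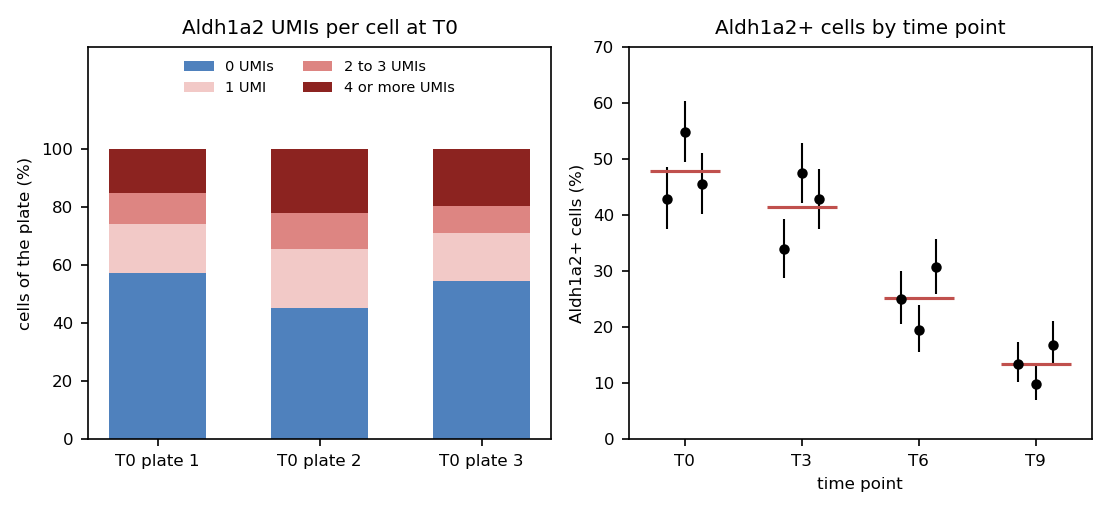
Left, share of the cells of each T0 plate (%) with 0, 1, 2 to 3, and 4 or more Aldh1a2 UMIs. Right, share of Aldh1a2+ cells (%) per plate at T0, T3, T6, and T9, with exact 95% binomial intervals as bars and the mean of 3 plates as a red line, which falls from 47.8% at T0 to 13.4% at T9.

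The classes were of nearly equal depth. The median UMIs per cell of Aldh1a2+ and Aldh1a2- cells were 12027 and 11462 in plate 1, 10822 and 10177 in plate 2, and 9853 and 8826 in plate 3, and the summed UMIs of a class in a plate ranged from 1619052 to 2220094. Mitochondrial UMIs made up 12.6% to 15.2% of a sum, and the order of the classes in this share was not the same in the 3 plates. When every cell was thinned to 3000 UMIs, the share with *Aldh1a2* UMIs was 23.2%, 32.9%, and 29.6% in plates 1, 2, and 3. The division into classes therefore depends on depth. The T3 cells, which had fewer UMIs per cell before thinning, gave 27.3%, 32.7%, and 27.9% when thinned in the same way. At equal depth the T0 and T3 shares thus overlapped. Cells that should hold little *Aldh1a2* also gave some. Of the 77 T0 cells with more *Tdgf1* UMIs, 26 held an *Aldh1a2* UMI (33.8%). These 77 cells were deep, with a median of 18066 UMIs, and their summed level was 24.9 CPM. All 12 plates used the same 384 cell barcodes.

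One difference between the classes lay in cells of another kind. A cell with at least 3 UMIs summed over *Epcam*, *Cdh1*, *Cldn6*, and *Cldn7*, genes of epithelial adhesion and tight junctions, is called epithelial-marked here. These were 25 of 182 Aldh1a2- cells and 7 of 137 Aldh1a2+ cells in plate 1, 18 of 152 and 6 of 185 in plate 2, and 22 of 184 and 2 of 154 in plate 3. In all, 12.5% of the Aldh1a2- cells (exact 95% interval 9.82% to 15.7%) and 3.15% of the Aldh1a2+ cells (1.77% to 5.14%) were epithelial-marked. These intervals pool the cells of the 3 plates, cover counting error only, and are no test of the classes. *Aldh1a2* UMIs were found in 15 of the 80 epithelial-marked cells (18.8%, median of 13633 UMIs per cell, summed level 22.8 CPM) and in 461 of the other 914 (50.4%, median of 10033 UMIs, 189.6 CPM). The summed level of the 9 epithelial marker genes, none of them at 0, was 642 to 798 CPM in the Aldh1a2- sums and 115 to 591 CPM in the Aldh1a2+ sums. With those cells left out it was 75.5 to 96.6 CPM and 61.9 to 84.1 CPM. The fit was therefore made for all cells and again without these 80 cells. In sums over cells, a change in the number of cells of a kind and a change in the RNA of each cell cannot be told apart.

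The UMIs of each gene were summed per plate and class and compared within the plates with the quasi-likelihood test of edgeR, adjusted by Benjamini-Hochberg over all genes tested, and a gene was called at an adjusted p of 0.05. Of 10523 genes, 333 (3.16%) differed between the classes, of which 139 (1.32%) were higher and 194 (1.84%) lower in Aldh1a2+ cells. Without the epithelial-marked cells, 120 of 10280 genes (1.17%) were called, 63 (0.613%) higher and 57 (0.554%) lower. Of these, 109 were also called with all cells, 58 higher and 51 lower, every one in the same direction. The genes lower in Aldh1a2+ cells had the larger fold changes (median log2 fold change -0.97, against 0.49 for the genes higher). They also had a median of 36.4% of their T0 UMIs in the epithelial-marked cells, against 4.38% for the genes higher and 10.0% for all genes tested. The counts rested on the tool and on single plates. DESeq2 called 72 genes with all cells, all among the 333, and the counts without the epithelial-marked cells were 47, 87, and 26 when plates 1, 2, and 3 were left out in turn.

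**Figure D2:**
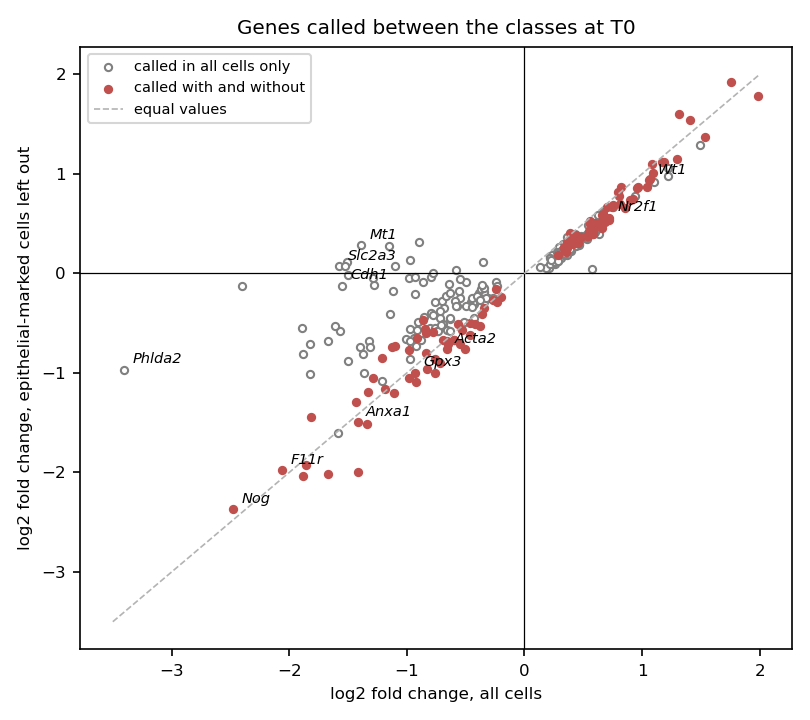
Log2 fold change (Aldh1a2+ over Aldh1a2-) of the called genes in all cells (x axis) and without the epithelial-marked cells (y axis). Filled points are called both ways and open points only with all cells; 44 of the 194 genes lower in Aldh1a2+ cells had too few UMIs to be tested without those cells and are not drawn. All 139 genes higher with all cells stay above 0 without the epithelial-marked cells, some with smaller values, and 58 of them are called both ways. Many of the lower genes move toward 0.

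Along the RA pathway, genes of retinol uptake and of the first oxidation, 2 of the 3 RA receptors, and several response genes were higher in Aldh1a2+ cells, and no gene of the pathway was lower. Of 48 listed genes other than *Aldh1a2* itself, 28 had enough UMIs to be tested. Of these, 10 were higher, none was lower, and 18 were not called, beside the background of 1.32% of all genes called higher. The median log2 fold change of the 28 was 0.18, and that of all genes tested was 0.00. Without the epithelial-marked cells, 3 of 27 were called, *Nr2f1* and *Rdh10* among them, beside the background of 0.613%, and the median was 0.05.

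Among the genes of synthesis and transport, 4 of the 9 tested were higher. *Rdh10*, the retinol dehydrogenase that supplies the substrate of ALDH1A2, stood at 96.8, 131, and 143 CPM in the Aldh1a2- cells of plates 1 to 3 and at 143, 203, and 212 CPM in the Aldh1a2+ cells. The classes nearly touched, plate 3 of the one against plate 1 of the other, and the Aldh1a2+ value was the higher one within each plate. The log2 fold change was 0.60 ± 0.09 (SE; adjusted p = 2.81e-04, edgeR) and 0.49 without the epithelial-marked cells (adjusted p = 0.00109). *Stra6*, the retinol-binding protein receptor, was at 23.9, 28.1, and 27.6 CPM in Aldh1a2- and 36.8, 43.3, and 48.2 CPM in Aldh1a2+ cells, with no overlap (log2 fold change 0.70 ± 0.17, adjusted p = 0.0238, and 0.55 with adjusted p = 0.160 without the epithelial-marked cells). *Dhrs3*, which returns retinaldehyde to retinol, was at 58.6, 62.3, and 55.3 CPM against 81.7, 76.4, and 83.4 CPM (0.47 ± 0.12, adjusted p = 0.0368). The classes did not overlap, but the difference of *Dhrs3* was 0.36 without the epithelial-marked cells (adjusted p = 0.260). *Crabp2*, a carrier of RA to its receptors, had overlapping classes and the smallest of the 4 changes (0.28 ± 0.06, adjusted p = 0.00881, and 0.12 with adjusted p = 0.602 without the epithelial-marked cells).

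The other genes of this group were not called. *Crabp1*, a further RA carrier, had a log2 fold change of 0.17 ± 0.06 (adjusted p = 0.164), and *Cyp26b1*, an RA-degrading enzyme, of -0.08 ± 0.21 (adjusted p = 0.922). The relatives of *Aldh1a2* were almost silent at T0, with 0 UMIs of *Aldh1a1*, 19 UMIs of *Aldh1a3*, and 0 UMIs of *Aldh8a1* in all 994 cells. *Cyp26a1* had 11 UMIs, *Adh1* had 26, and *Cyp26c1* none. Of the 47 listed genes in the table, 19 were too low to test, and none of these had more than 60 UMIs.

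Of the receptors and their partners, 4 of 10 tested genes were higher. *Nr2f1* (COUP-TFI), an orphan nuclear receptor that is induced by RA and competes for its binding sites, held its call under every setting tried. *Nr2f1* was at 162, 232, and 199.7 CPM in Aldh1a2- and 279, 364, and 321 CPM in Aldh1a2+ cells, with every Aldh1a2+ value above every Aldh1a2- value (0.72 ± 0.07, adjusted p = 3.65e-06, and 0.56 with adjusted p = 1.19e-06 without the epithelial-marked cells). Its relative *Nr2f2* differed less (0.27 ± 0.06, adjusted p = 0.00631). *Rarb* was at 56.8, 76.3, and 88.0 CPM against 97.4, 109.9, and 104 CPM (0.53 ± 0.12, adjusted p = 0.0139) and *Rara* had a log2 fold change of 0.43 ± 0.11 (adjusted p = 0.0382), while *Rarg* was at -0.41 ± 0.14 and was not called (adjusted p = 0.124). The calls of *Nr2f2*, *Rarb*, and *Rara* were lost without the epithelial-marked cells (adjusted p = 0.207, 0.201, and 0.324). Exons of *Rarb* overlap those of *Top2b*, and those of *Nr2f1* overlap the antisense gene *A830082K12Rik*, and the strand setting of the counting is not given in the sources used here. *Rxra* (-0.13 ± 0.21), *Rxrb* (-0.27 ± 0.20), and the corepressor *Ncor1* (-0.04 ± 0.06) were not called.

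Of 18 tested response genes, 8 were higher. Most of these were already counted above, namely *Crabp2*, *Dhrs3*, *Stra6*, *Rarb*, *Nr2f1*, and *Nr2f2*, which stand in more than 1 list. *Meis2*, a homeobox cofactor of HOX proteins, had a log2 fold change of 0.21 ± 0.05 (adjusted p = 0.0186), and 0.09 without the epithelial-marked cells (adjusted p = 0.642). The RA-responsive Hox genes that could be tested, *Hoxa5* and *Hoxb5*, were not called (-0.10 ± 0.12 and 0.14 ± 0.14, adjusted p = 0.806 and 0.75).

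**Figure D3:**
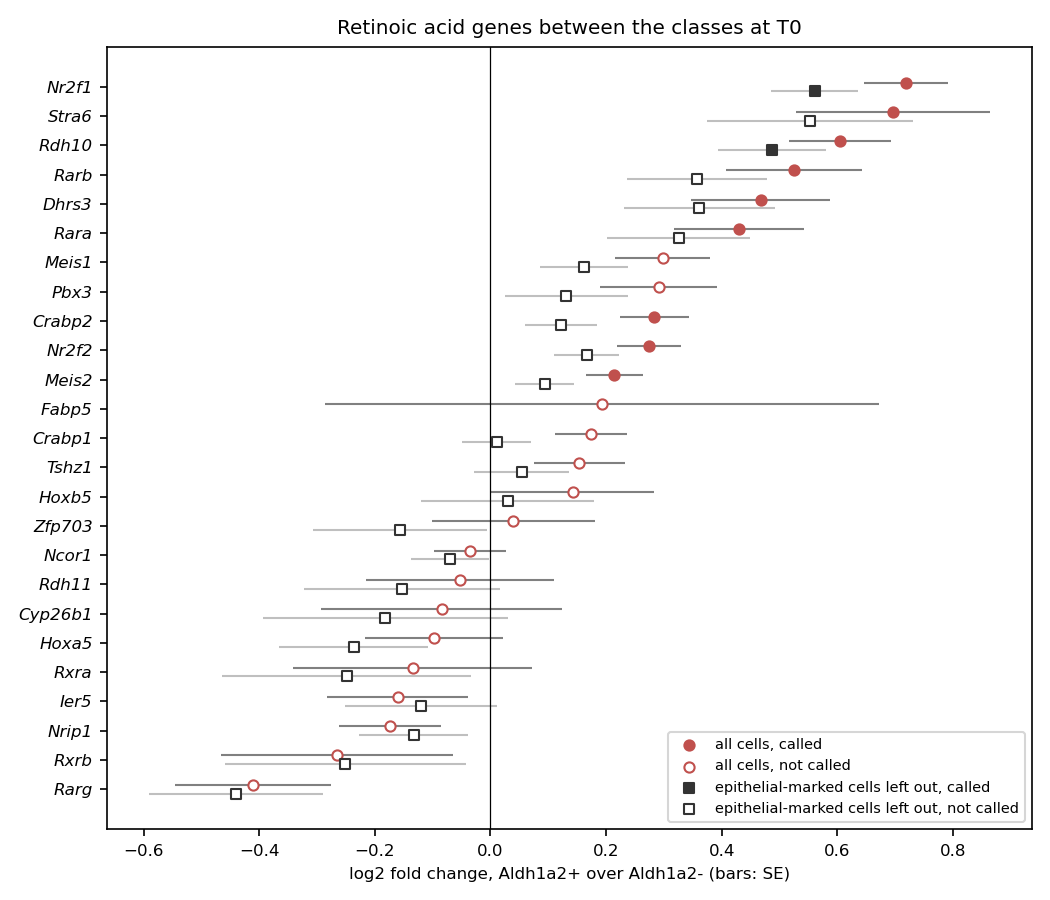
Log2 fold change (Aldh1a2+ over Aldh1a2-, bars are SE) of 25 of the RA pathway genes that could be tested at T0, in all cells (circles) and without the epithelial-marked cells (squares). Filled symbols are called; 9 circles are filled, all above 0, and 2 squares, those of Nr2f1 and Rdh10.

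Outside the RA pathway, the genes higher in Aldh1a2+ cells included members of the mesothelium, limb, Hox, and Wnt lists. *Wt1*, a zinc finger factor of mesothelium and kidney, was at 45.5, 36.6, and 47.4 CPM in Aldh1a2- and 90.4, 87.1, and 90.2 CPM in Aldh1a2+ cells. The classes of *Wt1* did not overlap (1.06 ± 0.13, adjusted p = 2.66e-05, and 0.94 with adjusted p = 1.06e-05 without the epithelial-marked cells). *Osr2*, of the same list of 8 tested genes of intermediate mesoderm and mesothelium, was at 2.70, 2.44, and 3.95 CPM against 10.5, 10.2, and 9.88 CPM (1.76 ± 0.42, adjusted p = 0.0235, and 1.92 with adjusted p = 0.0177 without the epithelial-marked cells). The difference of *Osr2* rests on 17 and 56 UMIs, and its call was lost with DESeq2 (adjusted p = 0.573), with matched depth (adjusted p = 0.0561), and when plate 1 or plate 2 was left out. Of the same list, *Msln*, *Upk1b*, and *Nr5a1*, had 0 UMIs, and *Krt19* was lower with the epithelial genes described below.

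Of 23 tested genes of limb mesenchyme, 6 were higher and 4 lower, beside 1.32% and 1.84% of all genes. *Alx1* (1.10 ± 0.28, adjusted p = 0.0301), a homeobox factor of craniofacial and limb mesenchyme, was higher. *Tbx4*, a hindlimb T-box factor, was at 3.60, 3.05, and 6.20 CPM against 13.4, 11.6, and 10.5 CPM (1.49 ± 0.39, adjusted p = 0.0377). On the other side, *Msx1* was at 149, 131, and 132 CPM in Aldh1a2- and 116, 109.9, and 89.6 CPM in Aldh1a2+ cells (-0.37 ± 0.10, adjusted p = 0.0434), *Msx2* had a log2 fold change of -0.60 ± 0.13 (adjusted p = 0.0125), and *Lhx2*, of the limb progress zone, one of -0.71 ± 0.16 (adjusted p = 0.0133). *Sall4* (-0.63 ± 0.14, adjusted p = 0.0106) was the other lower gene, and its difference was -0.19 without those cells (adjusted p = 0.834). After these cells were left out, *Msx1* (-0.53, adjusted p = 0.00149), *Msx2* (-0.67, adjusted p = 0.00670), and *Lhx2* (-0.90, adjusted p = 2.03e-04) remained called, but *Alx1* (adjusted p = 0.0622) and *Tbx4* (adjusted p = 0.116) did not. *Prrx1*, a pan-mesenchymal factor, was among the 6 higher genes with all cells (0.29 ± 0.06, adjusted p = 0.00527) and had a difference of 0.13 without the epithelial-marked cells (adjusted p = 0.521). The median log2 fold change of the limb list was 0.04 with all cells and -0.11 without the epithelial-marked cells. Of 25 tested Hox genes, 3 were higher and none lower, beside the same shares of all genes. They were *Hoxd12* (1.09 ± 0.19, adjusted p = 0.00194), *Hoxa10* (0.59 ± 0.10, adjusted p = 0.00130), and *Hoxd13* (0.54 ± 0.13, adjusted p = 0.0203), members of the posterior groups of the clusters. Of these, *Hoxd12* (1.01, adjusted p = 0.00293) and *Hoxa10* (0.43, adjusted p = 0.0166) were called without the epithelial-marked cells and *Hoxd13* was not (adjusted p = 0.173), and *Hoxc9* was then called lower (-0.51, adjusted p = 0.0312).

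Further genes were higher, and *Ptn*, *Igfbp5*, *Wls*, *Epha4*, *Unc5c*, *Sema5a*, *Gpc3*, and *Cdkn1c* were named after their values were seen. *Ptn*, a heparin-binding growth factor, was at 752, 708, and 803 CPM in Aldh1a2- and 1395, 1024, and 1198 CPM in Aldh1a2+ cells (0.68 ± 0.06, adjusted p = 5.79e-07). *Igfbp5*, an IGF-binding protein, was at 174, 143, and 160.2 CPM against 254, 254, and 263 CPM (0.71 ± 0.08, adjusted p = 2.31e-05). Neither gene had overlapping classes, and both kept their calls without the epithelial-marked cells (0.52 and 0.67). *Igfbp3* differed by 0.96 ± 0.14 (adjusted p = 2.05e-04), and its classes overlapped, plate 2 having 37.2 CPM in Aldh1a2- and 52.6 CPM in Aldh1a2+ cells. The Wnt antagonists *Frzb* (0.72 ± 0.09, adjusted p = 9.20e-05) and *Sfrp1* (0.48 ± 0.06, adjusted p = 2.52e-05) were higher, while *Wnt5a*, a ligand, was at 76.6, 56.2, and 74.5 CPM in Aldh1a2- and 47.8, 34.0, and 48.2 CPM in Aldh1a2+ cells (-0.66 ± 0.13, adjusted p = 0.00572), and *Wls*, the carrier needed to secrete Wnt proteins, was lower too (-0.34 ± 0.07, adjusted p = 0.00489). All 4 held without the epithelial-marked cells. Of the 17 tested Wnt genes of the list, the other 14 were not called, and the median was 0.01.

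The receptor genes *Epha4* (0.74 ± 0.12, adjusted p = 5.89e-04), *Unc5c* (0.58 ± 0.08, adjusted p = 2.05e-04), and the semaphorin gene *Sema5a* (0.82 ± 0.13, adjusted p = 8.38e-04) were higher. So were *Gpc3*, a glypican that restrains growth (0.55 ± 0.06, adjusted p = 2.31e-05), *Cdkn1c*, a CDK inhibitor (0.40 ± 0.05, adjusted p = 2.35e-05), and *Col1a2*, a chain of type I collagen (0.53 ± 0.08, adjusted p = 7.94e-04). These 6 genes were also called without the epithelial-marked cells, with log2 fold changes of 0.67, 0.40, 0.70, 0.42, 0.38, and 0.38 in the order given. *Col1a1*, the partner chain, was at 0.32 ± 0.10 and was not called (adjusted p = 0.105). The largest changes among genes of at least 20 CPM were mostly those of genes at low levels. *AW551984* was at 8.11, 7.33, and 9.03 CPM against 22.8, 22.4, and 25.3 CPM (1.53 ± 0.26, adjusted p = 0.00125), *Nav3* had a log2 fold change of 1.19 ± 0.23, *Crispld1* of 1.17 ± 0.24, *Zfp804a* of 1.07 ± 0.22, *Matn2* of 1.05 ± 0.18, and *Ntrk2*, the BDNF receptor, of 0.92 ± 0.20. *E030030I06Rik*, *Iigp1*, *Dach2*, and *Piezo2* had log2 fold changes between 0.85 and 1.09, and *Wt1*, *Alx1*, *Hoxd12*, and *Igfbp3*, given above, were also among the 15 largest. The call of *Iigp1* was lost without the epithelial-marked cells (0.77, adjusted p = 0.0563), and *AW551984* (1.37), *Nav3* (1.11), *Crispld1* (1.12), *Zfp804a* (0.94), *Matn2* (0.87), *Ntrk2* (0.75), *E030030I06Rik* (1.10), *Dach2* (0.74), and *Piezo2* (0.66) were still called.

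**Figure D4:**
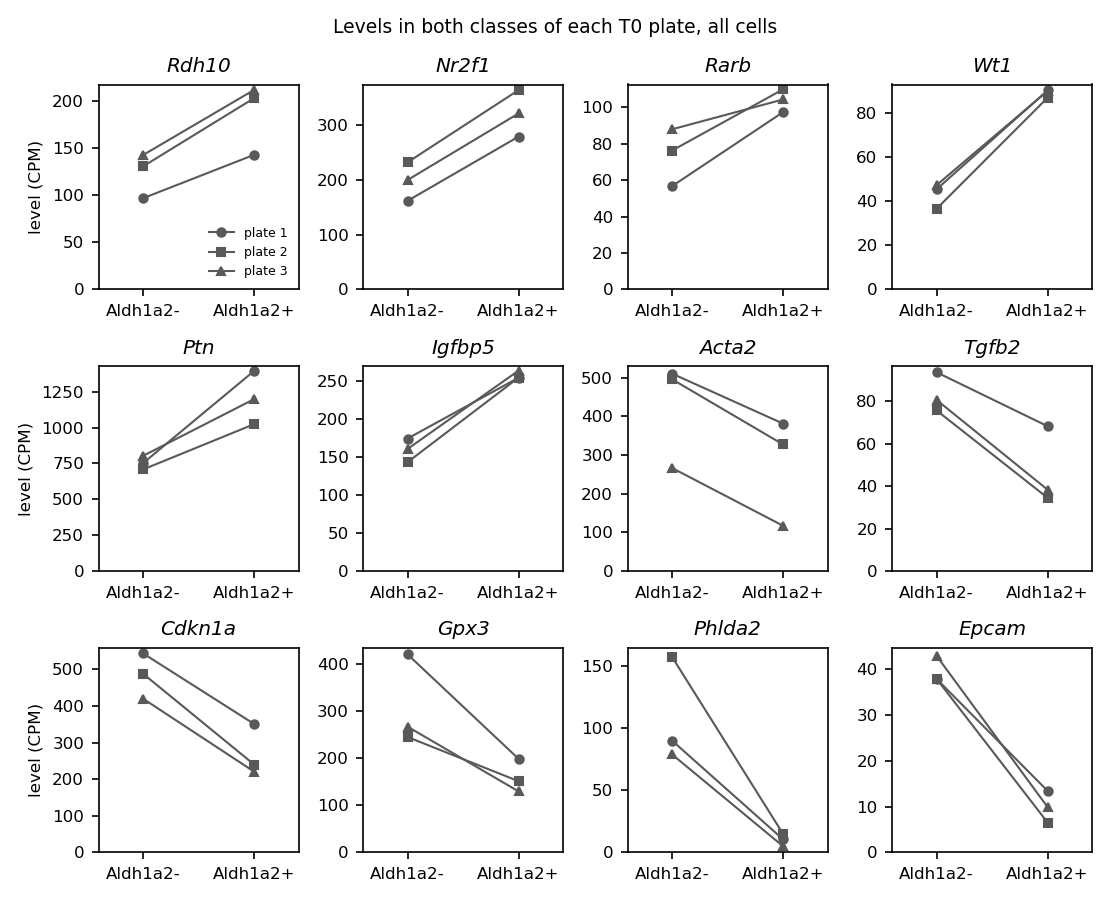
Levels (CPM, y axes from 0) of 12 genes in the Aldh1a2- and Aldh1a2+ cells of each T0 plate, all cells; symbols are plates and lines join the classes of a plate. The lines of Rdh10, Nr2f1, Rarb, Wt1, Ptn, and Igfbp5 go up in all 3 plates, and those of Acta2, Tgfb2, Cdkn1a, Gpx3, Phlda2, and Epcam go down.

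Among the genes lower in Aldh1a2+ cells with and without the epithelial-marked cells were contractile genes, the TGF-β2 ligand, and BMP pathway genes. *Acta2*, the smooth muscle actin, was at 510.3, 496, and 266 CPM in Aldh1a2- and 381, 327, and 117 CPM in Aldh1a2+ cells. The classes overlapped across plates, and the Aldh1a2+ value was the lower one within each plate (-0.66 ± 0.09, adjusted p = 1.92e-04, and -0.76 with adjusted p = 5.27e-10 without the epithelial-marked cells). *Tagln* was lower as well (-0.55 ± 0.10, adjusted p = 0.00298, and -0.71 with adjusted p = 8.92e-04 without those cells), and the other 4 tested genes of the smooth muscle list were not called. Without the plate as a block, *Acta2* and *Tagln* were not called (adjusted p = 0.554 and 0.626).

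*Tgfb2*, the gene of the factor that was later added to the medium, was at 93.7, 75.7, and 80.7 CPM in Aldh1a2- and 68.3, 34.5, and 38.3 CPM in Aldh1a2+ cells, with no overlap (-0.83 ± 0.14, adjusted p = 0.00140, and -0.96 with adjusted p = 1.06e-05 without the epithelial-marked cells). *Nog*, the secreted BMP antagonist noggin, was at 17.6, 11, and 15.8 CPM against 1.75, 3.26, and 2.47 CPM, from 85 UMIs in Aldh1a2- and 14 in Aldh1a2+ cells (-2.48 ± 0.41, adjusted p = 0.00106, and -2.37 with adjusted p = 5.45e-04 without the epithelial-marked cells). Of 26 tested genes of the TGF-β, BMP, and activin list, 4 were lower (*Nog*, *Tgfb2*, *Msx1*, and *Msx2*) and 1 was higher (*Fstl1*, 0.26 ± 0.05, adjusted p = 0.00615), with a median of -0.15, beside 1.84% and 1.32% of all genes. With those cells left out, 5 of 24 were lower, beside 0.554% of all genes, *Id1*, a BMP response gene, being the fifth (-0.28, adjusted p = 0.00999), and *Fstl1* was not called (0.10, adjusted p = 0.673).

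*Cdkn1a*, the p53-responsive CDK inhibitor p21, was at 543, 488, and 419.7 CPM in Aldh1a2- and 351, 239.9, and 220.5 CPM in Aldh1a2+ cells (-0.84 ± 0.07, adjusted p = 6.05e-07, and -0.60 with adjusted p = 5.62e-06 without the epithelial-marked cells). *Gpx3*, a secreted glutathione peroxidase, was at 421, 245, and 267 CPM against 199, 151, and 129.7 CPM (-0.93 ± 0.08, adjusted p = 9.12e-07, and -1.0 without the epithelial-marked cells, adjusted p = 2.02e-11). *Anxa1*, an annexin, had 50.5% of its UMIs in epithelial-marked cells, and its difference was as large without them (-1.42 ± 0.28 with all cells and -1.49 without, adjusted p = 4.85e-08). The same held for *F11r*, the junctional adhesion molecule JAM-A, with 57.1% of its UMIs in those cells. Without them it stood at 33.3, 34.0, and 25.2 CPM in Aldh1a2- and 9.28, 7.87, and 6.25 CPM in Aldh1a2+ cells (-1.97, adjusted p = 1.19e-06). *Igf1*, *Atf3*, *Hspb1*, *Thbs1*, *Bdnf*, *Cpm*, *Scube1*, and *Ly6a* were also lower both ways, with log2 fold changes between -0.46 and -1.41 with all cells.

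The genes with the largest fold changes in that direction had many of their UMIs in epithelial-marked cells. *Rhox9* (-4.22 ± 0.30), *Rhox6* (-3.56 ± 0.31), *Phlda2* (-3.40 ± 0.17), *Tmprss2* (-2.92 ± 0.27), *Fabp3* (-2.63 ± 0.31), *Podxl* (-2.60 ± 0.31), *Perp* (-2.53 ± 0.34), *Nup62cl* (-2.41 ± 0.32), *Cdkn2b* (-2.38 ± 0.31), *Tex19.1* (-2.26 ± 0.29), *F11r* (-2.06 ± 0.21), *Sfn* (-2.06 ± 0.24), *Epcam* (-1.99 ± 0.23), and *Itga3* (-1.89 ± 0.23) were among the 15 largest. Between 43.2% and 94.4% of their T0 UMIs came from the 80 epithelial-marked cells. *Phlda2*, an imprinted growth restrictor of the placenta, was at 90.1, 158, and 79.0 CPM in Aldh1a2- and 10.5, 14.9, and 4.94 CPM in Aldh1a2+ cells. With these cells left out the difference of *Phlda2* was -0.97 and was not called (adjusted p = 0.111). *Rhox9* was at 132 CPM in the Aldh1a2- cells of plate 1 and at 17.1 and 11.3 CPM in those of plates 2 and 3, so the 3 plates differed widely. *Rhox6* and *Rhox9* are related neighbours on the X chromosome, and their reads may be split between them.

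Of the 9 epithelial markers, all tested, 5 were lower (*Cdh1*, *Epcam*, *Cldn4*, *Cldn6*, and *Krt19*) and none higher, with a median of -1.31, and 4 of the 9 were still tested without the epithelial-marked cells, none of them called. Since *Epcam*, *Cdh1*, *Cldn6*, and *Cldn7* chose the cells left out, their values without these cells follow from that choice. The calls of *Slc2a3*, a glucose transporter (-1.57 ± 0.12 with all cells and 0.08 without), and *Mt1*, a metallothionein (-1.39 ± 0.19 and 0.28), were lost without the epithelial-marked cells. Both values were then above 0, and neither was called (adjusted p = 0.967 and 0.590, edgeR).

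Of the tendon and cartilage genes tested at T0, *Col1a2* was the called one. *Scx*, the tendon transcription factor, was at 14.9, 8.55, and 12.4 CPM in Aldh1a2- and 5.25, 8.39, and 14.2 CPM in Aldh1a2+ cells, from 69 and 50 UMIs (-0.38 ± 0.34, adjusted p = 0.724). The classes overlapped fully, and the order differed between plates. *Scx* UMIs were held by 29 of 476 Aldh1a2+ cells (6.09%) and 27 of 518 Aldh1a2- cells (5.21%), and after thinning to 3000 UMIs by 2.2% ± 0.98 and 1.67% ± 1.03 (mean ± SD, n = 3 plates). *Sox9*, expressed in sclerotome and in tendon and cartilage progenitors, had a log2 fold change of -0.09 ± 0.10 (adjusted p = 0.785). None of the 6 tested genes of the chondrocyte list was called, and 1 of the 6 of the tenocyte list was, *Col1a2*, which is also a fibroblast gene and was higher. *Tnmd* had 0 UMIs in these cells. *Hmga2*, a chromatin factor of immature mesenchyme, was higher (0.28 ± 0.05, adjusted p = 0.00165, and 0.18 with adjusted p = 0.0205 without the epithelial-marked cells), and *Sox11* was not called (0.16 ± 0.05, adjusted p = 0.0597).

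Other groups gave few calls. Of 5 tested fibroblast genes 3 were higher (*Col1a2*, *Pdgfra*, and *Col3a1*), and *Col1a2* alone held without the epithelial-marked cells. The FGF feedback genes *Spry1* and *Dusp6* were higher (0.47 ± 0.11 and 0.41 ± 0.11), 2 of 10 tested FGF genes, and neither was called without the epithelial-marked cells. None of the 8 hedgehog genes was called. Of 40 S phase genes, 2 were higher (*Rrm1* and *Uhrf1*), beside 1.32% of all genes, with a list median of 0.16. Neither was called without the epithelial-marked cells (adjusted p = 0.111 and 0.0725). The summed level of the S phase genes was 4403 to 4894 CPM in the Aldh1a2- and 5193 to 5242 CPM in the Aldh1a2+ sums, with no overlap. Of 50 G2M phase genes, 1 was higher (*Top2a*, 0.33 ± 0.07, adjusted p = 0.00777, and 0.26 with adjusted p = 0.0106 without the epithelial-marked cells), and the list median was -0.01. The summed levels of 10 endothelial markers (at most 24.3 CPM, *Cdh5* at 0), 10 neural markers (at most 69.6 CPM, *Sox1* and *Neurog2* at 0), and 10 pluripotency markers (59.3 to 168 CPM) overlapped between the classes, and none of their tested genes was called.

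Levels by the number of *Aldh1a2* UMIs, the value the rule used, are given as a description only, and some genes followed that number while others did not. From cells with 0 UMIs over those with 1 and 2 to 3 to those with 4 or more, *Wt1* stood at 43.2, 62.1, 79.6, and 122 CPM, *Ptn* at 754, 974, 1234, and 1416 CPM, and *Nr2f1* at 198, 241, 313, and 401 CPM (means of 3 plates). The SD over plates of *Nr2f1* was 35.2 CPM in the first and 48.3 CPM in the last of these groups, and that of *Ptn* was 47.6 and 191 CPM. *Rarb* stood at 73.7, 81.8, 97.6, and 128 CPM in the same order. *Cdkn1a* went the other way, with 484, 345, 243, and 219 CPM, and *Acta2* stood at 424, 486, 185, and 131 CPM, with SDs of 137, 273, 141, and 87.8 CPM. *Tgfb2* dropped at the first UMI, from 83.4 to 49.1 CPM, and then stood at 49.4 and 43.8 CPM. *Epcam* stood at 39.5, 14.0, 15.9, and 2.35 CPM. The levels did not rise at each step for *Crabp2* (395, 487, 473, and 473 CPM), *Stra6* (26.5, 27.4, 56.9, and 49.5 CPM), *Igfbp5* (159, 149, 257, and 352 CPM), or *Crabp1* (478, 449.8, 566, and 583 CPM).

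At 3000 UMIs per cell, *Nr2f1* was detected in 37.2% ± 5.13 of Aldh1a2- and 53.4% ± 11.6 of Aldh1a2+ cells, *Wt1* in 9.77% ± 1.16 and 18.1% ± 0.46, and *Rdh10* in 27.7% ± 7.78 and 36.8% ± 4.10 (mean ± SD, n = 3 plates). Without thinning these shares were 64.6% and 81.7%, 21.2% and 43.6%, and 50.8% and 63.8%. *Tgfb2* was detected in 17.4% ± 3.83 and 9.73% ± 1.94 after thinning, lower among Aldh1a2+ cells in all 3 plates. Unthinned, plate 2 had more Aldh1a2+ than Aldh1a2- cells with *Tgfb2* (28.6% and 24.3%). *Acta2*, lower in summed level, was detected in 23.3% ± 7.4 of Aldh1a2- and 22.8% ± 5.49 of Aldh1a2+ thinned cells, with plate 2 opposite in order to plates 1 and 3. The thinned orders of *Nr2f1*, *Wt1*, *Rdh10*, and *Tgfb2* were the same in each plate, and 3 plates allow no paired test with an exact two-sided p below 0.25. Over the 994 thinned cells, the genes whose counts followed those of *Aldh1a2* most closely included *Ptn*, *Cdkn1c*, *Igfbp5*, *Sfrp1*, *Ntrk2*, *Nr2f1*, *Nhsl2*, *Wt1*, and *Lbh*, with mean rank correlations within a plate between 0.21 and 0.15 among 7409 genes. Such coefficients are weak, the cells of a plate share its library, and they are given as a description only.

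A stricter reading left a short list. Under all 13 settings of the T0 comparison, which changed the tool, scaling, filter, block, cells, or plates one at a time, 16 genes were called in the same direction. Higher in Aldh1a2+ cells were *Wt1*, *Epha4*, *Nr2f1*, *Igfbp5*, *Ptn*, *Unc5c*, *Gpc3*, and *Col1a2*. Lower were *Cdkn1a*, *Cited2*, *Klf6*, *Tagln2*, *Gpx3*, *Hspb8*, *Anxa3*, and *F11r*. Not described above are *Cited2* (-0.85 ± 0.12), a CBP/p300 cofactor, *Klf6* (-0.86 ± 0.11), a zinc finger factor, *Tagln2* (-0.91 ± 0.10), an actin-binding protein, *Hspb8* (-0.98 ± 0.16), and *Anxa3* (-1.12 ± 0.15), an annexin. The epithelial-marked cells held 30.8% to 47.9% of the UMIs of each of these genes. Without those cells the values were -0.56 for *Cited2*, -0.47 for *Klf6*, -0.65 for *Tagln2*, -0.77 for *Hspb8*, and -0.74 for *Anxa3*. Of the 16, all but *Wt1*, *Nr2f1*, *Col1a2*, and *F11r* were named after their values were seen. *Nr2f1* was the only RA pathway gene among the 16. The list does not cover settings changed together. With the epithelial-marked cells left out and each plate then left out in turn, fewer genes kept their calls. Of the 16 these were *Wt1*, *Nr2f1*, *Igfbp5*, *Ptn*, *Gpc3*, *Gpx3*, and *F11r*, and the others lost the call in at least 1 of these fits.

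The class difference was compared between T0 and T3, where the same rule gave 427 Aldh1a2+ and 598 Aldh1a2- cells, by the interaction of class and time point in a fit of both. Of 11217 genes tested, 163 (1.45%) had a difference at T3 that was not the same as at T0. *Acta2* turned over. It was lower in Aldh1a2+ cells at T0, and at T3 it was at 554, 745, and 791 CPM in Aldh1a2- and 963, 1023, and 1079 CPM in Aldh1a2+ cells (0.58 ± 0.08, adjusted p = 8.81e-04), with an interaction of 1.24 ± 0.14 (adjusted p = 1.15e-04). *Epha4* turned the other way, with 185, 282, and 194 CPM in Aldh1a2- and 105, 213, and 119.8 CPM in Aldh1a2+ cells at T3 (-0.60 ± 0.12, adjusted p = 0.0150, interaction -1.34 ± 0.18 with adjusted p = 3.57e-04). *Igfbp4* went from 0.36 ± 0.05 at T0 to -0.34 ± 0.07 at T3 (interaction adjusted p = 2.44e-04). *Gja1*, the gap junction protein connexin 43, did not differ at T0 beyond its error (-0.05 ± 0.07) and was lower at T3 (-1.12 ± 0.11, interaction adjusted p = 2.68e-04). The mitotic genes *Ccnb1* and *Plk1* were not called at T0 (-0.27 ± 0.10 and -0.14 ± 0.08) and were higher at T3 (1.27 ± 0.20 and 1.05 ± 0.16, interaction adjusted p = 8.09e-04 and 7.28e-04), and of 51 G2M genes 6 had a called interaction, all toward higher values at T3. These 5 genes kept their interaction calls without the epithelial-marked cells, as did *Acta2*.

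Other differences were found at both time points. *Tgfb2* was lower in Aldh1a2+ cells by nearly the same amount at T0 and T3 (-0.83 ± 0.14 and -0.84 ± 0.13, interaction -0.01 ± 0.22, adjusted p = 0.996), and so were *Cdkn1a* (-0.84 ± 0.07 and -0.84 ± 0.11, interaction adjusted p = 0.996) and *Anxa1* (-1.42 ± 0.28 and -1.44 ± 0.20, interaction adjusted p = 0.999). *Sfrp1* (0.48 ± 0.06 and 0.68 ± 0.08) and *Rdh10* (0.60 ± 0.09 and 1.18 ± 0.16) were higher at both. For *Rdh10* the interaction was 0.56 ± 0.17 and was not called (adjusted p = 0.120). Of the 333 genes called at T0, 32 were also called at T3, where 219 of 9579 genes were called. Most of the 32 had the same direction at both, and some had opposite directions, *Acta2*, *Epha4*, and *Igfbp4* among them. *Scx* was lower in Aldh1a2+ cells at T3 (-0.47 ± 0.09, adjusted p = 0.00834), but its interaction with time was not called (-0.10 ± 0.33, adjusted p = 0.95). The classes were less alike in depth at T3, with median UMIs of 5478, 7371, and 7957 in Aldh1a2+ and 4734, 5526, and 6910 in Aldh1a2- cells, and with classes matched in depth 19 genes had a called interaction. The part of depth in the 163 was not tested further.

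**Figure D5:**
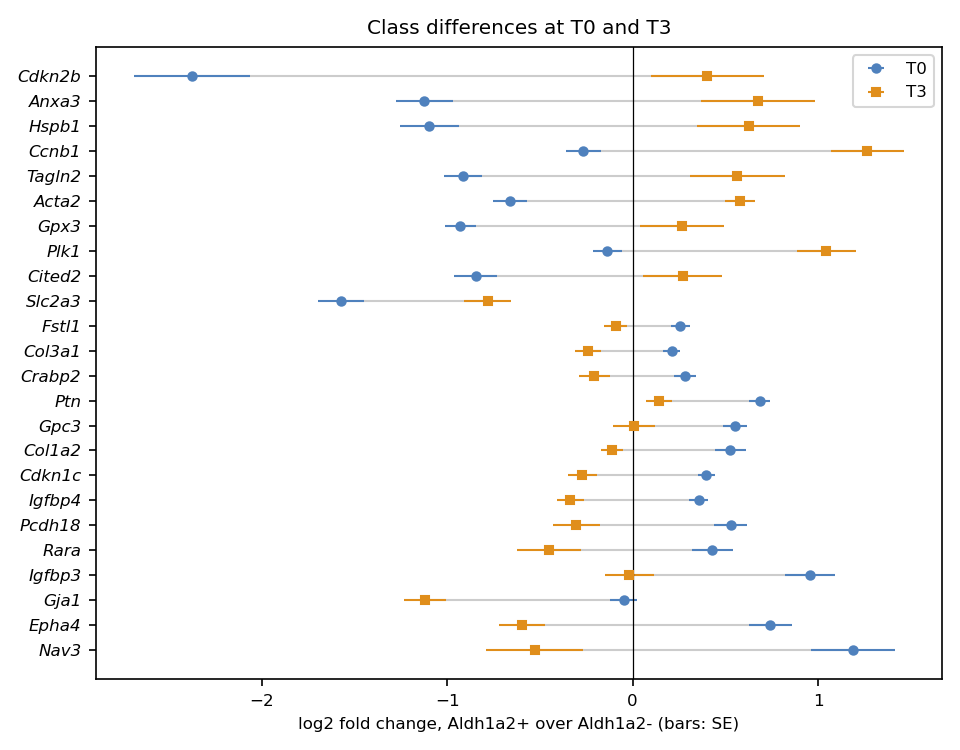
Log2 fold change (Aldh1a2+ over Aldh1a2-, bars are SE) at T0 (blue circles) and T3 (orange squares) of 24 named genes that were tested at both time points and whose class difference differed between them. Acta2 lies at -0.66 at T0 and 0.58 at T3, and Epha4 at 0.74 and -0.60.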

How the data were processed

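The authors sorted single cells into 384-well plates, made CEL-Seq2 libraries, trimmed the reads, aligned them to mouse GRCm38 with HISAT2 2.2.1, and deposited UMI counts per gene and well from featureCounts and UMI-tools 1.0.1, as whole numbers without normalization. The annotation release and the strand setting are not given in the sources used here. Of 29632 entries, 3 outside Ensembl (0.0642% of UMIs) were left out. Gene positions and exon overlaps come from GENCODE M21 (GRCm38).

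The 12 plates held 4608 wells. Counts were summed per plate and class and fitted with edgeR 4.0.16 (filterByExpr by class, TMM, plate as a block, quasi-likelihood test, two-sided, Benjamini-Hochberg) in R 4.3.3, with *Aldh1a2* left out. The SE of a log2 fold change is its size divided by the square root of the F statistic. The classes of a plate come from the same wells' library, which gives the pairing, and they deviated together (correlation of deviations from the class means 0.49, 0.25, and 0.23 in plates 1 to 3 over 6160 genes). The T0 fit used 6 sums and the fit with T3 used 12. DESeq2 1.42.0 was the other tool. Thinning drew 3000 UMIs at random from each cell, and matching drew equal numbers of cells of each class within bins of 0.1 in log10 UMIs. No doublet caller was run, since single cells were sorted. The tests were also tried on simulated data with 200 changed genes. In the T0 comparison 78% of 2-fold and 50.5% of 1.5-fold changes were recovered, and in the class-by-time fit 40% of 2-fold changes. A gene that was not called may therefore still differ.

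Named genes were the 15 largest changes in each direction among called genes of at least 20 CPM in 1 class and with the same direction in all 3 plates, all genes of the RA lists, called genes of the other lists, and the genes the study names, as far as space allowed. Members, lists, and this rule were chosen with earlier results of these data known. *Anxa3*, *Atf3*, *Ccnb1*, *Cdkn1a*, *Cdkn1c*, *Cited2*, *Epha4*, *Gja1*, *Gpc3*, *Gpx3*, *Hspb1*, *Hspb8*, *Igf1*, *Igfbp4*, *Igfbp5*, *Klf6*, *Mt1*, *Pcdh18*, *Plk1*, *Ptn*, *Sema5a*, *Slc2a3*, *Tagln2*, *Thbs1*, *Unc5c*, and *Wls*, named after their values were seen, and the comparison without epithelial-marked cells as a result of its own, were added later. *Lrat*, *Msgn1*, *Ripply1*, *Ripply2*, *Nkx3-2*, *Upk3b*, *Snorc*, and *Wnt3a* were not analysed here, nor was the bulk table. Python 3.11.15, numpy 2.4.6, scipy 1.17.1, pandas 2.3.3, and matplotlib 3.10.9 were used. Results for some genes are not reported here.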

Additional observations from a re-analysis of the deposited data

Results flagged for a closer look

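The class difference was tested at T0 and T3 in a single fit, and 163 genes had differences that were not the same at both. Of these, 137 were tested at each time point and 116 had opposite signs. Calling genes for unequal differences favours opposite signs, and their share over all genes was not counted, so no conclusion is drawn from the 116. Values below are the difference at T3 minus that at T0 on the log2 scale, for named genes tested at both.

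Toward higher values in Aldh1a2+ cells at T3 were *Cdkn2b* (2.76), *Anxa3* (1.80), *Hspb1* (1.77), *Ccnb1* (1.52), *Tagln2* (1.48), *Acta2* (1.24), *Gpx3* (1.19), *Plk1* (1.19), *Cited2* (1.13), and *Slc2a3* (0.79). The value of *Slc2a3* turned to -0.95 without the epithelial-marked cells (adjusted p = 0.0354, edgeR). Toward lower values were *Nav3* (-1.69), *Epha4* (-1.34), *Gja1* (-1.08), *Igfbp3* (-0.98), *Rara* (-0.87), *Pcdh18* (-0.84), *Igfbp4* (-0.70), *Cdkn1c* (-0.67), *Col1a2* (-0.65), *Gpc3* (-0.56), *Ptn* (-0.55), *Crabp2* (-0.49), *Col3a1* (-0.46), and *Fstl1* (-0.35). Without the epithelial-marked cells, the interactions of *Anxa3*, *Hspb1*, *Tagln2*, *Cited2*, *Rara*, *Gpc3*, *Ptn*, *Crabp2*, *Col3a1*, and *Fstl1* were not called (adjusted p between 0.0517 and 0.423, edgeR). Groups of 3 plates were too small for a test of single plates that stand apart.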

How the results depend on the processing

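The count of 333 genes at T0 was 72 with DESeq2 (24 higher and 48 lower), 107 with no replicate block (22 and 85), 116 with cells thinned to 3000 UMIs (of 7252 genes), and 120 without the epithelial-marked cells. It stayed within 1.5 times under size factors, no filter, matched depth, at least 2 *Aldh1a2* UMIs, and at least 5000 UMIs, and ranged from 275 to 435 without single plates. Without the epithelial-marked cells, the 120 became 13 with DESeq2, 6 with no replicate block, 74 with matched depth, and 26 to 87 without single plates, 14 of the 120 being called without each plate in turn. The 163 class-by-time genes became 54 with DESeq2, 289 with no filter, 0 with no replicate block (623 at an unadjusted p under 0.05), 19 with matched depth, 27 thinned, and 77 without the epithelial-marked cells. They ranged from 42 (without plate 1 of T0) to 245 (without plate 1 of T3), with 97 and 44 without plates 2 and 3 of T0 and 47 and 61 without plates 2 and 3 of T3. Without the epithelial-marked cells, *Cldn6* (0.11), *Mt1* (0.28), and *Slc2a3* (0.077) changed sign, and none of these values was called (adjusted p = 0.964, 0.590, and 0.967, edgeR). *Cldn6* helped to choose the cells left out, so its value follows from that choice. No other named call changed sign under any setting. Of 115 named called genes, 46 were called with DESeq2, 47 with no replicate block, and 69 without the epithelial-marked cells. In that last setting 29 lost the call, and the 3 with a changed sign were not called either. The cause of these changes was not tested, beyond the fewer genes and cells that some settings leave. Genes of few UMIs, such as *Scx*, could show only large differences at this depth.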
